A study of Mus musculus with 6 samples.

Results

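The genes described here encode matricellular proteins, secreted proteins that sit in the extracellular matrix and act on cells without building its fibers. The 9 listed genes were the thrombospondins Thbs1, Thbs2, Thbs3 and Thbs4, together with Postn (periostin), Sparc, Sparcl1, Tnc (tenascin C) and Spp1 (osteopontin), and a probe set belonged to the group when its platform gene symbol was one of these. A probe set was found for 8 of the 9 genes, 1 for each gene, among 19505 genes measured, and Spp1 was not analysed here. The submandibular gland (SMG), a salivary gland (SG), was compared between 3 sham-operated (Cont) and 3 ovariectomized (OVX) BALB/c mice, with 1 Clariom S array of whole-gland RNA per mouse. All 6 mice were females that had surgery at 6 weeks of age and were 14 weeks old at sampling, 8 weeks later. Bilateral removal of the ovaries, the only labelled difference between the groups, removes the main source of estrogen and models its loss after menopause. It also takes away the other ovarian hormones, and no estrogen-replaced group is compared here.

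Matricellular proteins are low in most resting adult tissues and are characteristically induced in development, wound repair and fibrosis. Thrombospondin 1 binds cells through CD36, CD47 and integrins, inhibits angiogenesis and can release active transforming growth factor β (TGFβ) from its latent complex. Periostin and SPARC bind collagen and take part in the assembly of collagen fibrils, and both are typical products of fibroblasts, while tenascin C modulates how cells adhere to fibronectin.

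Thbs1, Postn and Sparc rose in the OVX-SG, by 6.82-fold, 4.05-fold and 3.85-fold, and none of the 8 measured genes fell. A gene was called when its adjusted p from limma was under 0.05, with Benjamini-Hochberg adjustment over the 19572 probe sets with 1 gene symbol. By this rule 3 of the 8 genes were higher, where 2.57% of all genes were higher, 1.07% were lower and 3.63% changed in either direction. In 5 of the 8 genes every OVX array lay above every Cont array, which held for 10.7% of all genes, and none of the 8 showed the opposite order, which held for 10.6%. At a 1.5-fold change with limma's unadjusted p up to 0.05, Thbs1, Postn and Sparc were again the 3 called higher, against 3.28% of all genes, and with the p of the study's own test in its place they were the same 3, against 2.92%. The median log2 change (OVX minus Cont) of the 8 genes was 0.42, beside −0.02 over all genes, whose changes had an SD of 0.33.

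Arrays of one group correlated with each other at 0.982 to 0.989 over all 22206 probe sets, and arrays of different groups at 0.971 to 0.979. Array medians were 5.20 to 5.22 on the log2 scale, lower quartiles were 3.77 to 3.86 and the highest values reached 13.06. The salivary identity of the tissue was visible in its markers, as the kallikrein Klk1 lay between 12.81 and 13.00 and the acinar water channel Aqp5 between 8.65 and 9.41 on every array. Of 6 measured genes listed as acinar, 2 fell by the adjusted p, Smgc from 12.33 to 5.18 and Spdef from 7.59 to 6.51. The other 4, among them Aqp5 (log2 change −0.46, limma adjusted p = 0.149), were not called. Of 6 listed as duct, 3 rose (Egf, Scnn1b and Krt7), and Krt19 (0.46), Ascl3 (−0.21) and Klk1 (−0.15) were not called. Over all genes 2.57% rose and 1.07% fell. Whether a listed gene, such as Smgc, is particular to its cell type in this gland was not tested. The gland differed between the groups in epithelial products as well, and in RNA from whole tissue fewer cells of a type and less RNA per cell cannot be told apart.

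The promoter sequences of Postn and Sparc are shown because these genes rose together, with that of a thrombospondin that was not called beside them. Those of Thbs1 and Sparcl1 were not analysed here, so no motif count covers them. RefSeq windows from 250 bases before to 50 bases after a start (build GRCm38.p6) were at hand for 6 of the 8 measured genes, in 8 windows, of which the pair at Tnc overlap. Capitals mark exact matches on either strand to the promoter element TATAAA, to the SMAD element CAGAC or to GGTCA, an arm of the estrogen receptor element, and each sequence runs 5′ to 3′ on the strand of its gene. Postn is on the plus strand at chr3:54359017-54359316 and, for a later start, at chr3:54360857-54361156. Sparc is on the minus strand at chr11:55420031-55420330, and Thbs2 on the minus strand at chr17:14694213-14694512.
Postn, first start: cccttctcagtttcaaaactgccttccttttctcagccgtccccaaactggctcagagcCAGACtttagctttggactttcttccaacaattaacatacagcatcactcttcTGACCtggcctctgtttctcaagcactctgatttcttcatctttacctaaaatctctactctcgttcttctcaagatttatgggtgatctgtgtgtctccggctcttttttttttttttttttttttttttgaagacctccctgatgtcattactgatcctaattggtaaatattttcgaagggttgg
Postn, later start: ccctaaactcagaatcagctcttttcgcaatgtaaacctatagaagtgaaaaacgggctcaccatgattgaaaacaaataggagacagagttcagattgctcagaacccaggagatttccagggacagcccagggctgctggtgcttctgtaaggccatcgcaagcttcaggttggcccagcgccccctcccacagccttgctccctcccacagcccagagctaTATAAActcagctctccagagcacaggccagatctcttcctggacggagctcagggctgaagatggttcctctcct
Sparc: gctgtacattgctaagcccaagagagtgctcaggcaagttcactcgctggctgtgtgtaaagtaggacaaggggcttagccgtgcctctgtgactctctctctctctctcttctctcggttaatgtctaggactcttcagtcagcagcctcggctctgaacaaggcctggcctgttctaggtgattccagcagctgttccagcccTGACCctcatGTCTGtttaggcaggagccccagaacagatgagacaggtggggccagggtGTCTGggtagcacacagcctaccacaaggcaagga
Thbs2: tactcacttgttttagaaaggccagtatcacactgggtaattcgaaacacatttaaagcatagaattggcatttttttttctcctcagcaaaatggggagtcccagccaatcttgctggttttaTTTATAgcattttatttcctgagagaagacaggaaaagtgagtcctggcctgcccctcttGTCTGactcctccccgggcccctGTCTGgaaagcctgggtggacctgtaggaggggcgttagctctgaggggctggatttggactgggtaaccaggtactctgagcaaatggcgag

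At its later start Postn held TATAAA 26 bases before the start, and at its first start it held CAGAC 191 bases and TGACC, the reverse complement of GGTCA, 138 bases before it. In Sparc, TGACC began 45 bases and GTCTG, the reverse complement of CAGAC, 35 bases before the start, with another GTCTG after it. Thbs2, which was not called, held TTTATA 126 bases and GTCTG 66 and 43 bases before its start. These letters are common, since TATAAA was found in 13.6%, CAGAC in 49.6% and GGTCA in 40.5% of 32851 promoters of the same length, beside 4, 6 and 2 of the 8 windows. GGAATG, the core of a TEAD element, was found in Thbs4 alone among the 6 genes and in 14.7% of all promoters. No window of the 6 genes held TGACTCA (an AP-1 element, 5.2% of all promoters), the palindromic estrogen receptor element made of GGTCA, any 3 bases and TGACC (0.07%), which includes the arm searched above, or a CArG box (1.63%).

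Thbs1, on chromosome 2, had log2 intensities of 5.41, 5.47 and 5.39 in Cont 1, 2 and 3, and of 7.91, 8.37 and 8.31 in OVX 1, 2 and 3. Cont mice were tightly grouped and every OVX mouse lay far above them, with OVX 1 the lowest of its group. The Cont mean was 5.42 ± 0.04 (SD, n = 3) and the OVX mean 8.19 ± 0.25 (SD, n = 3), which gave a log2 change of 2.77 (SE 0.15, 95% interval 2.43 to 3.11, limma adjusted p = 3.67e-06). Among all 19505 genes it ranked 20th by the size of its change and 7th by its p-value. Within single arrays it moved from percentile 53.8 at its lowest to percentile 95.4 at its highest.

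The other thrombospondins were not called in either direction. Thbs2, which like Thbs1 forms trimers and inhibits angiogenesis, had log2 intensities of 4.44, 5.31 and 4.43 in Cont 1 to 3 and of 4.40, 4.54 and 4.91 in OVX 1 to 3. The groups overlapped, Cont 2 was the highest array, and the log2 change was −0.11 (SE 0.23, 95% interval −0.62 to 0.41, limma adjusted p = 0.874). Its sign turned to 0.19 without Cont 2. Thbs3, a pentameric thrombospondin of skeletal tissue, had log2 intensities of 3.53, 3.83 and 4.34 in Cont and of 3.89, 3.88 and 4.21 in OVX, and the groups overlapped here too. This probe set lay between percentiles 20.8 and 33.3 of its arrays, close to their lower quartile, and its log2 change was 0.09 (SE 0.20, 95% interval −0.35 to 0.53, limma adjusted p = 0.873). Thbs4, a pentameric thrombospondin known from tendon and muscle, had log2 intensities of 6.35, 6.37 and 6.14 in Cont and of 6.56, 6.03 and 6.14 in OVX. Both the highest and the lowest of these arrays were OVX mice, and the log2 change was −0.04 (SE 0.16, 95% interval −0.40 to 0.32, limma adjusted p = 0.935).

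The difference between thrombospondins was taken within each array, as the log2 value of Thbs1 minus that of each relative, so that only its shift between groups was read. The shift was 2.88 against Thbs2, 2.68 against Thbs3 and 2.81 against Thbs4, and in all 3 pairs each OVX array exceeded each Cont array. An exact two-sided permutation test over arrays gave p = 0.1 for each of the 3 pairs (adjusted p = 0.1), the smallest value that 3 against 3 arrays allow. Leaving out any array kept the shift between 2.61 and 3.02 for Thbs2, between 2.44 and 2.86 for Thbs3 and between 2.62 and 3.11 for Thbs4.

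**Figure D1:**
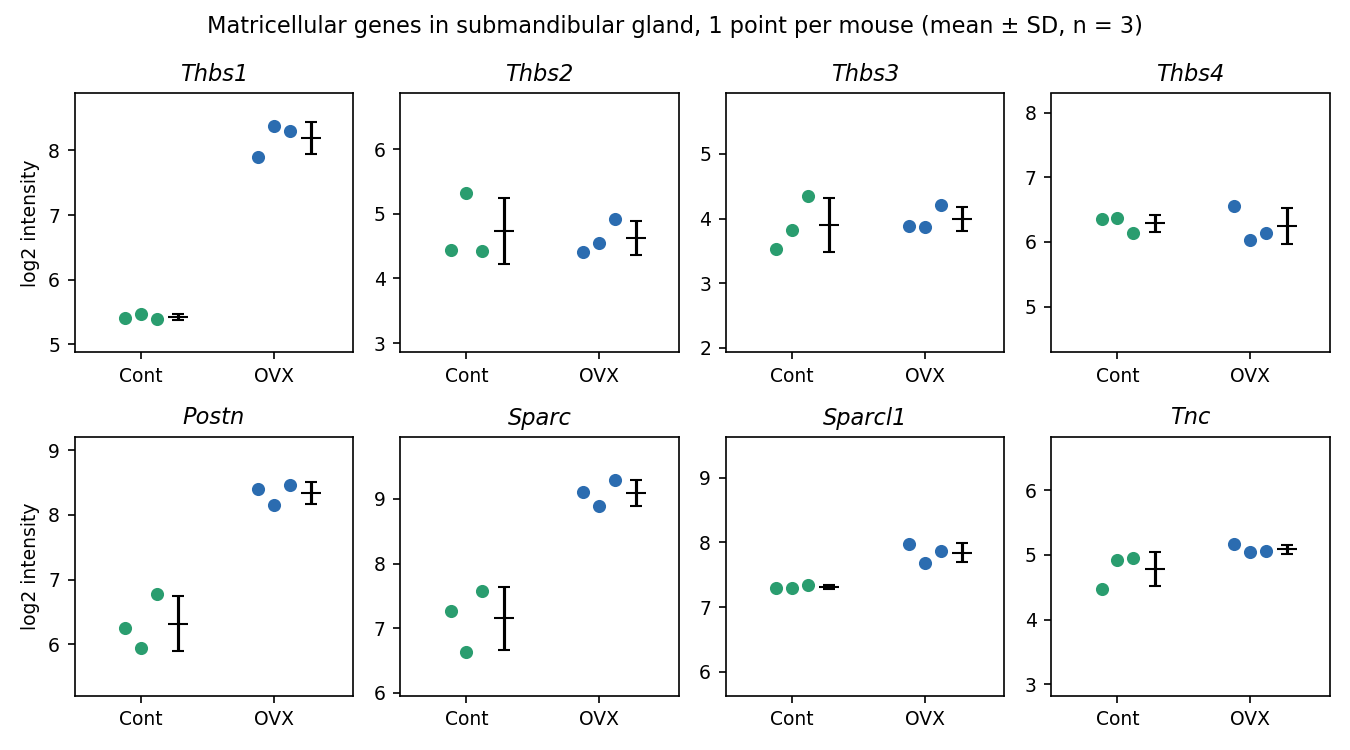
Log2 intensity of the 8 measured matricellular genes, 1 panel per gene, with 1 point per mouse (Cont green, OVX blue, replicates 1 to 3 from left to right) and the group mean ± SD (n = 3) beside the points. Each panel spans the same number of log2 units, and the groups are apart in Thbs1, Postn, Sparc, Sparcl1 and Tnc while those of Thbs2, Thbs3 and Thbs4 overlap.

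Postn, on chromosome 3, codes for periostin, a partner of collagen and integrins. Its log2 intensities were 6.25, 5.95 and 6.77 in Cont 1 to 3 and 8.40, 8.15 and 8.47 in OVX 1 to 3, so the groups did not overlap, and replicate 2 was the lowest of each group. Means were 6.32 ± 0.42 in Cont and 8.34 ± 0.17 in OVX (SD, n = 3 each), and the log2 change was 2.02 (SE 0.20, 95% interval 1.58 to 2.46, limma adjusted p = 0.000188). It ranked 52nd by size of change and 67th by p-value.

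Sparc, on chromosome 11, encodes a collagen-binding glycoprotein also called osteonectin. In Cont 1 to 3 its log2 intensities were 7.26, 6.63 and 7.57, and in OVX 1 to 3 they were 9.11, 8.89 and 9.29. Again the groups did not overlap and replicate 2 was the lowest of each. Its mean was 7.15 ± 0.48 in Cont and 9.10 ± 0.20 in OVX (SD, n = 3 each), for a log2 change of 1.94 (SE 0.22, 95% interval 1.46 to 2.43, limma adjusted p = 0.000475), and it ranked 56th by size of change and 98th by p-value.

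Sparcl1, also known as hevin, is the close relative of Sparc and is known from blood vessels and the brain. Its log2 intensities were 7.29, 7.30 and 7.34 in Cont and 7.97, 7.68 and 7.86 in OVX, without overlap. The log2 change of 0.53 (SE 0.14, 95% interval 0.23 to 0.83, 1.44-fold) did not pass after adjustment (unadjusted p = 0.00239, limma adjusted p = 0.0593). Tnc was at 4.48, 4.92 and 4.95 in Cont and at 5.17, 5.04 and 5.06 in OVX on the log2 scale. The gap between the highest Cont and the lowest OVX array of Tnc was narrow, and its log2 change of 0.31 (SE 0.16, 95% interval −0.03 to 0.65, limma adjusted p = 0.375) was not called.

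Thbs1, Postn and Sparc kept an adjusted p under 0.05 with any single array left out, but under the equal-variance test of the methods, which takes the spread of each gene alone, with the same adjustment only Thbs1 did (adjusted p = 0.0345), and in its unequal-variance form none did.

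**Figure D2:**
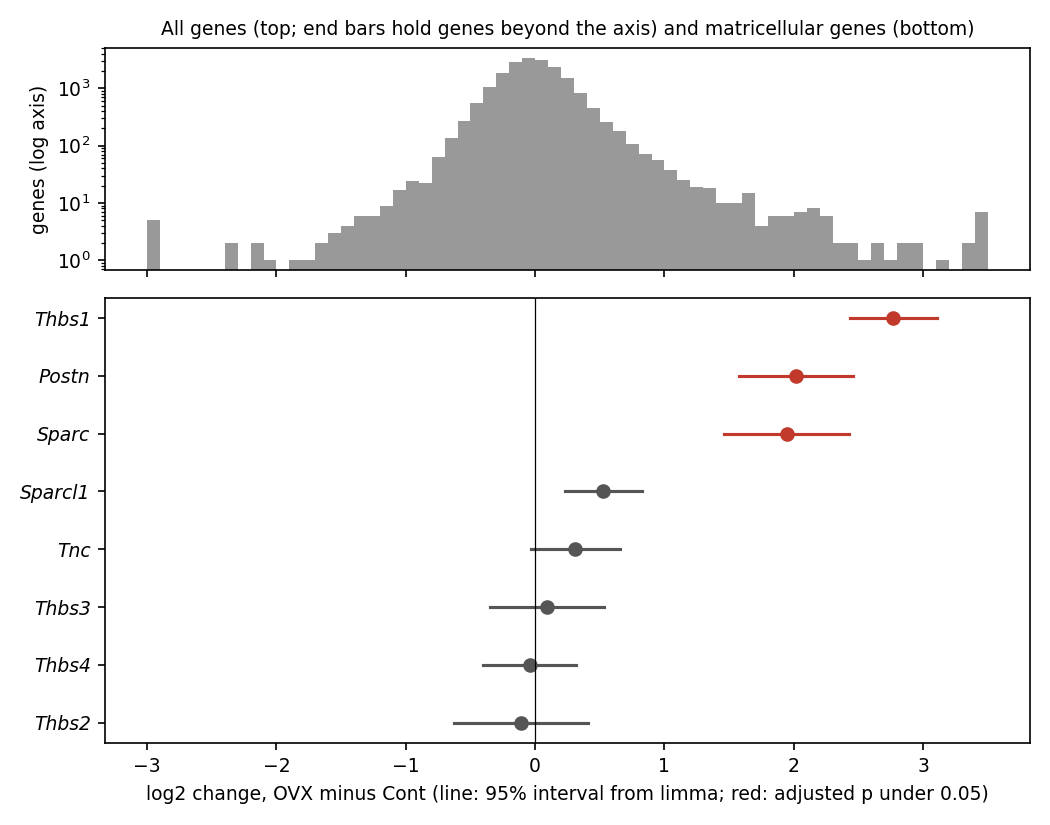
Upper panel, the number of genes (log axis) by log2 change, OVX minus Cont, over all 19505 genes, with genes beyond the axis gathered in the end bars. Lower panel, the log2 change of each of the 8 genes with its 95% interval from limma, red where the adjusted p was under 0.05; Thbs1 (2.77), Postn (2.02) and Sparc (1.94) lie in the upper tail, and the intervals of Tnc, Thbs3, Thbs4 and Thbs2 include 0.

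Within the groups, Postn and Sparc deviated from their group means in like fashion. In Cont 1 to 3 the deviations on the log2 scale were −0.08, −0.38 and 0.45 for Postn and 0.11, −0.53 and 0.42 for Sparc, and in OVX 1 to 3 they were 0.06, −0.19 and 0.13 for Postn and 0.01, −0.20 and 0.19 for Sparc. Replicate 2 lay below and replicate 3 above the mean in both groups and both genes. Col3a1, the collagen III chain, showed the same order of signs at replicates 2 and 3, with deviations of 0.71, −1.13 and 0.42 in Cont and 0.03, −0.18 and 0.14 in OVX. Sparcl1 and Col1a1 had these signs there too. Col1a2, another collagen chain, did not, as its OVX arrays 1 to 3 were at 7.12, 7.34 and 7.17, with OVX 2 the highest. Thbs1 did not follow Postn and Sparc: its deviations were −0.01, 0.04 and −0.03 in Cont, and −0.29, 0.18 and 0.11 in OVX, where OVX 1 was the low array. Tagln (transgelin), a smooth muscle gene, deviated by −0.08, 0.05 and 0.03 in Cont 1 to 3, with a sign opposite to that of Thbs1 at Cont 3, and in OVX by −0.09 at OVX 1 and 0.10 at OVX 2, with OVX 3 close to the mean. With 3 arrays per group these are descriptions and were not tested.

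**Figure D3:**
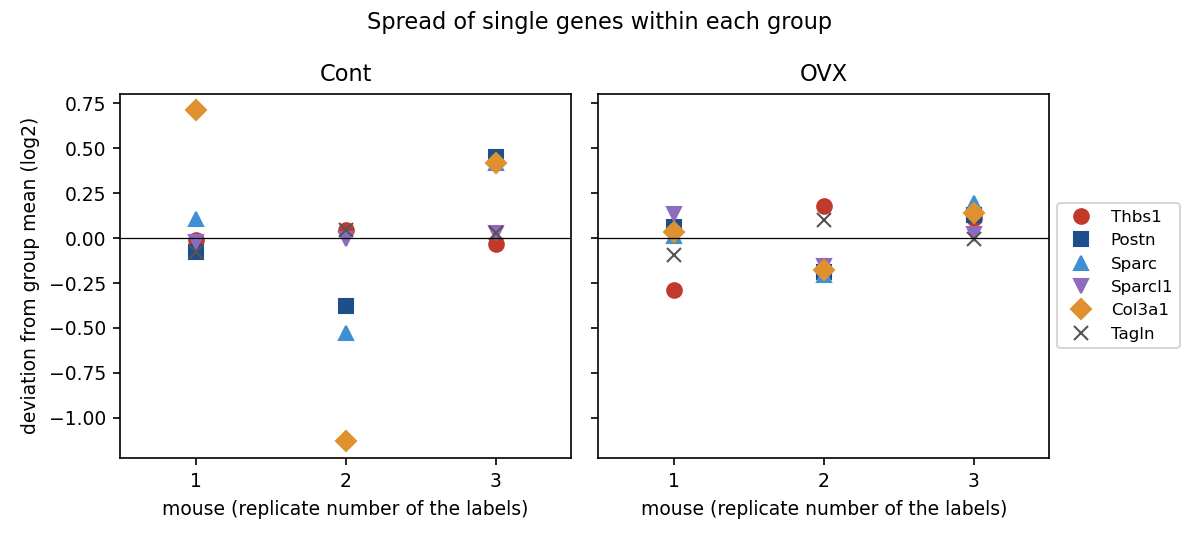
Deviation of single genes from their group mean (log2), for Cont (left) and OVX (right), by replicate number as labelled. Postn, Sparc and Col3a1 lie low at Cont 2 (−0.38, −0.53 and −1.13) and OVX 2, whereas Thbs1 stays within 0.04 of its mean in Cont and is lowest at OVX 1 (−0.29).

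The genes most like each called gene were taken as the 3 with the highest Pearson r of log2 values over the 6 arrays, a measure set mainly by the difference between the groups. For Thbs1 these were Camk2d (r = 0.998, log2 change 2.20), Lypd6 (r = 0.998, 1.12) and Tagln (r = 0.998, 2.10). For Postn they were Mbnl1 (r = 0.999, log2 change 0.61), Ogdh (r = 0.999, 0.76) and Sgms1 (r = 0.998, 1.02). Those of Sparc were Ctnnal1 (r = 0.998, log2 change 1.38), Flna (r = 0.997, 1.24) and Ireb2 (r = 0.997, 0.50), of which Ireb2 was not called (limma adjusted p = 0.0671). Camk2d codes for a calcium-dependent kinase and Flna for the actin crosslinker filamin A.

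The neighbouring genes on the chromosome, taken as the nearest protein-coding gene on each side in GRCm38.p6, were not called for any of the 8 genes. Over all genes 3.63% were called. Beside Thbs1, Rasgrp1 had a log2 change of −0.45 (limma adjusted p = 0.154) and Fsip1 one of −0.08. Beside Postn the values were −0.04 for Trpc4 and 0.22 for Supt20, and beside Sparc they were −0.15 for Fat2 and −0.18 for Atox1. The changes next to the genes that were not called lay between −0.37 (Muc1, beside Thbs3) and 0.36 (Dspp, beside Sparcl1), with Smoc2, Wdr27, Mtx1, Serinc5, Mtx3, Gm17660, Tnfsf8 and Pappa in between.

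Of 21 further matricellular genes, comprising tenascins, SPARC relatives, CCN proteins and others, 1 rose and none fell by the adjusted p. The median log2 change of the 21 was 0.12, and over all genes 2.57% rose and 1.07% fell by this rule. The one called was Ccn1, an integrin ligand induced by growth factors, at 6.05, 6.27 and 6.05 in Cont and 6.78, 6.76 and 6.92 in OVX (log2 change 0.70, limma adjusted p = 0.0164), and it stayed under 0.05 in 2 of the 6 fits that left out an array. Smoc1, a SPARC relative of basement membranes, had a log2 change of −0.63 (limma adjusted p = 0.0583) and was not called, nor was Ccn2, the connective tissue growth factor, at 0.44 (limma adjusted p = 0.192). Before adjustment, 4 of the 21 were higher and 1 was lower at p under 0.05, where 8.24% of all genes were higher and 7.59% lower.

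Among 20 receptors of matricellular proteins, 2 rose and 1 fell, where 2.57% of all genes rose and 1.07% fell. The median log2 change of the 20 was 0.13. Cd36, the scavenger receptor that binds thrombospondin 1, was lower in OVX-SG, with log2 intensities of 5.40, 5.10 and 5.34 in Cont and of 4.40, 4.34 and 4.26 in OVX. The groups did not overlap, and its log2 change of −0.95 (SE 0.14, limma adjusted p = 0.00273) passed in each of the 6 fits that left out an array. By the equal-variance test of the methods its adjusted p was 0.0740. Cd47, the other thrombospondin receptor named above, rose by a log2 change of 0.59 (limma adjusted p = 0.0448), and Itgb6, the epithelial integrin chain that activates latent TGFβ, by 0.60 (limma adjusted p = 0.0248). Adipocytes and endothelium also make Cd36. The 4 adipocyte markers, none of them called, had a median change of −0.40, with mean levels of 4.62 to 5.11 in Cont and 4.07 to 4.83 in OVX arrays. The 6 endothelial markers, none called either, had a median change of −0.07, with mean levels of 5.16 to 5.27 in Cont and 5.07 to 5.31 in OVX arrays. The part of either cell type in the fall of Cd36 was not tested. When single arrays were left out, Cd47 passed in 1 and Itgb6 in 0 of the 6 fits.

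Of 11 genes of latent TGFβ and its activators and targets, 3 rose and none fell, where 2.57% of all genes rose and 1.07% fell. The median log2 change of the 11 was 0.05. Tgfb2 had log2 intensities of 6.60, 6.43 and 6.60 in Cont and of 9.61, 9.47 and 9.35 in OVX, far apart, and its log2 change was 2.93 (SE 0.14, limma adjusted p = 1.13e-06). Tgfb3 rose by 0.89 (limma adjusted p = 0.00676), and both passed with any array left out. By the equal-variance test of the methods the adjusted p was 0.0201 for Tgfb2 and 0.124 for Tgfb3. Col1a1, the collagen I chain and a TGFβ target, rose by 0.65 (limma adjusted p = 0.0388) and passed in 1 of those 6 fits. Tgfb1, the ligand best known for release by thrombospondin 1, had a log2 change of 0.45 and was not called (limma adjusted p = 0.146). Among 14 enzymes that act on matricellular proteins 1 rose, where 2.57% of all genes did. It was the procollagen protease Bmp1, with a log2 change of 0.64 (limma adjusted p = 0.0307, passing in 1 of the 6 fits). Ctsk, the collagen-degrading cathepsin K, had the same log2 change of 0.64 with a limma adjusted p of 0.0591.

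Some fibroblast markers and most markers of contractile cells were also higher in the OVX arrays. By the adjusted p, 2.57% of all genes were higher and 1.07% lower. Of 7 fibroblast markers 4 rose and none fell, with a median log2 change of 0.65, and their mean level was 5.88 to 6.49 in Cont and 6.90 to 7.08 in OVX arrays. Col3a1 had the largest change among them (2.30, limma adjusted p = 0.00502), ahead of Col1a2 (0.96, limma adjusted p = 0.00519), and Dcn, the collagen-binding proteoglycan decorin, rose by 0.60 (limma adjusted p = 0.0340) but did not pass once any array was left out. Col1a1, given above, was the other marker called, whereas Dpt (dermatopontin) had a log2 change of −0.44 and was not called. The fibroblast count was 2 to 4 when single arrays were left out, and 0 under the equal-variance test of the methods with the same adjustment. Of 9 myoepithelial and smooth muscle markers 7 rose and none fell, with 1.37 as the median change and mean levels of 5.92 to 6.13 in Cont and 7.12 to 7.32 in OVX arrays. Tagln rose by 2.10 (limma adjusted p = 7.07e-06) and Acta2, smooth muscle actin, by 1.77 (limma adjusted p = 8.29e-05). The contractile genes Cnn1, Myh11 and Myl9 rose by 2.11, 1.71 and 1.37, and the basal keratin Krt5 by 0.77. The myoepithelial and smooth muscle count was 5 to 6 when single arrays were left out, and Krt5 passed in 2 of those 6 fits. Under the equal-variance test of the methods with the same adjustment the count was 2 (Tagln and Myh11). The part of these cells in the change of Thbs1, Postn and Sparc was not tested.

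No marker was called by limma among 6 pericyte, 6 endothelial, 5 macrophage, 5 platelet and megakaryocyte, 5 B and T lymphocyte, 3 Schwann cell, 5 skeletal muscle and 4 adipocyte genes. Platelets carry much thrombospondin 1, and their markers showed a median change of −0.11 (log2), at mean levels of 5.36 to 5.41 in Cont and 5.23 to 5.42 in OVX arrays. Pf4, a platelet chemokine, had every OVX array above every Cont array with a log2 change of 0.28 (limma adjusted p = 0.403), and Ppbp, another, was under the lower quartile on every array with a change of −0.28. The part of platelets in the change of Thbs1 was not tested. At an unadjusted p under 0.05, 1 macrophage gene and 1 endothelial gene were higher, where 8.24% of all genes were. Lower were 1 endothelial, 1 pericyte, 1 lymphocyte, 2 Schwann cell and 1 adipocyte gene, where 7.59% of all genes were. None of the platelet or skeletal muscle genes passed.

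In these lists the genes with the smallest p had the following log2 changes, none of them called. They were 0.39 for Kdr and −0.45 for Tek among endothelial genes, −0.70 for Abcc9 and −0.28 for Notch3 among pericyte genes, and 0.41 for Adgre1 and 0.27 for Csf1r among macrophage genes. Lymphocyte genes gave −0.44 for Cd79a and −0.51 for Cd3d, and genes listed for Schwann cells −0.69 for Sox10 and −0.35 for S100b, the latter under the lower quartile on every array. Whether Sox10 is particular to Schwann cells in this gland was not tested. Among skeletal muscle genes Tnnt3 was at −0.25 and Acta1 at 0.24, and among adipocyte genes Cidec was at −0.73 and Plin1 at −0.40.

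**Figure D4:**
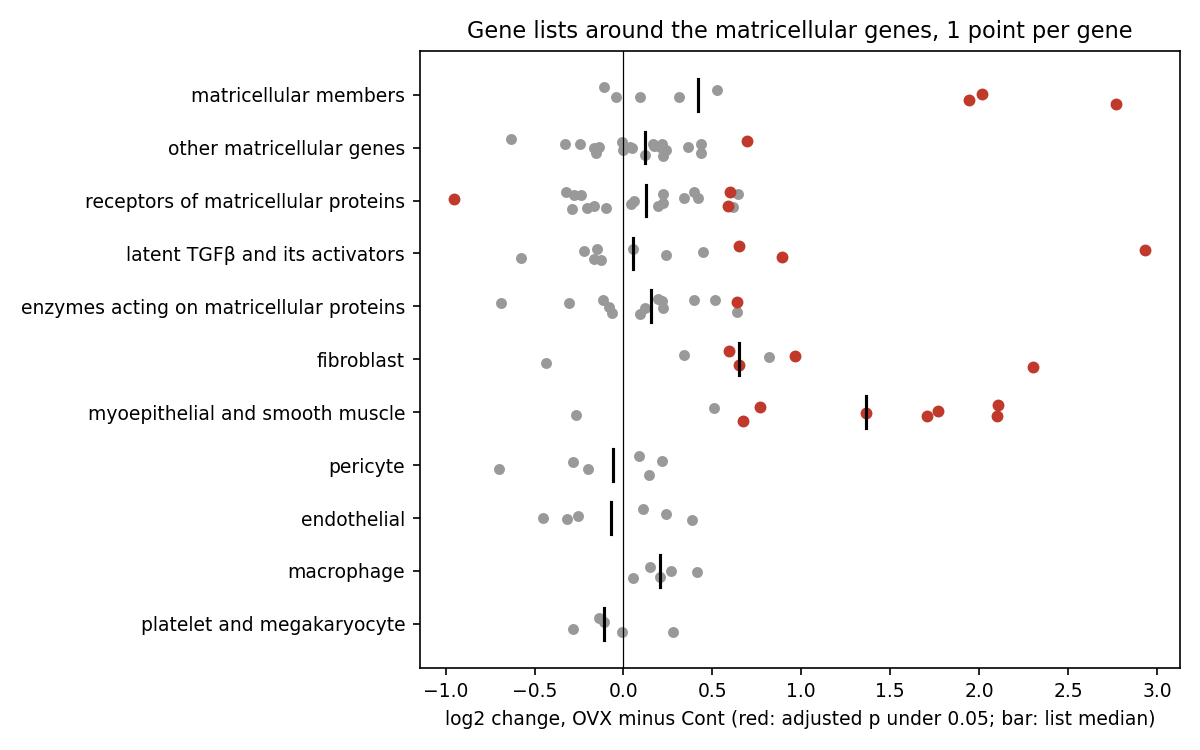
Log2 change, OVX minus Cont, of single genes in the matricellular group, in 4 related lists and in 6 lists of cell type markers, with 1 point per gene, red where the limma adjusted p was under 0.05 and a bar at the list median. Thbs1, Postn and Sparc stand to the right of their list's median of 0.42, and the myoepithelial and smooth muscle list has the highest median drawn (1.37).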

How the data were processed

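Total RNA of 6 glands was hybridized to Clariom S mouse arrays, 1 per mouse. The deposited values are log2 intensities per probe set, which the authors normalized together by SST-RMA (RMA and Affymetrix Power Tools per the submitters' processing notes, with versions not given in the sources at hand). Levels of different genes were not tested against each other, and no detection call was used. Percentiles and quartiles within an array only describe where a probe set lay. Of 22206 probe sets, 19572 had 1 gene symbol in the platform annotation and 2634 had none. The brightest probe set stood for each of 55 genes with several. OVX and Cont were compared with limma 3.58.1 in R 4.3.3 (lmFit and eBayes, two-sided), and the fit was tested on simulated data. Benjamini-Hochberg adjustment was over the 19572 probe sets with 1 symbol, before 1 was kept for each of 19505 genes. The members and lists were chosen with earlier results of these data known, and the study itself followed Thbs1, so no count is independent evidence. Named were all members, list genes past the adjusted p (at most 6 per list), the 2 with the smallest p where none or 1 passed, the 3 most alike genes and chromosome neighbours. Added after their values were seen were Klk1, Aqp5, Krt19, Ascl3, Ccn2, Tgfb1, Dpt, Actg2, Krt14 and Des. The study's listing rule with its own t-test p was also added after seeing the data. Alternatives covered scaling, filters, variance priors, array weights, tests, probe sets and leaving out arrays. A planned protein comparison was not run. Labels call the samples biological replicates. The number of arrays limits the precision.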

Additional observations from a re-analysis of the deposited data

How the results depend on the processing

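Of 79 member values under alternatives other than leaving out an array, 71 kept their side of the threshold and 70 their direction as well, the exception being Thbs4 with array weights. Thbs1 (2.77), Postn (2.02) and Sparc (1.94) were called in every limma setting. With an array left out their log2 changes were 2.68 to 2.92, 1.83 to 2.24 and 1.68 to 2.15, with adjusted p up to 0.000101, 0.00174 and 0.0036. Under the t-test of the methods 1 of the 8 members was called, with Postn (2.02) at an adjusted p of 0.0946 and Sparc (1.94) at 0.124, and under the Welch form 0 were, with Thbs1 (2.77) at 0.213, Postn at 0.292 and Sparc at 0.321. These tests share no spread between genes. Sparcl1 passed in 3 settings: without the dimmest 30% of probe sets (0.53, adjusted p = 0.0307), with limma's robust trend (0.53, adjusted p = 0.00984) and with array weights (0.57, adjusted p = 0.0355). With an array left out its change was 0.46 to 0.61 and it never passed (adjusted p 0.0667 to 0.227). Thbs3 has no value under the dim filter, which drops it. Among members that were not called, the sign turned for Thbs2 (0.19 without Cont 2), for Thbs3 (−0.09 without Cont 1, −0.02 without OVX 3) and for Thbs4 (0.01 with array weights and without OVX 3, 0.06 without OVX 2, 0.00 without Cont 2). Tnc stayed at 0.16 to 0.39.

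Over all genes the count of 709 became 1104 with the robust trend, 79 under the t-test of the methods, 7 under the Welch form and 382 to 561 with an array left out (428 without Cont 2, 382, 455 and 396 without OVX 1, 2 and 3). The cause was not tested beyond the loss of arrays. With an array left out, 3 members were called each time, the further matricellular genes gave 0 to 1, the receptors 1 to 3, the latent TGFβ genes 2 to 4 and the enzymes 0 to 1 called genes. Quantile normalization gave 2 enzymes. No scaling moved the median of all genes by over 0.1. With the replicate block, 630 genes and 3 members were called, and the adjusted p was 1.66e-05 for Thbs1, 0.000112 for Postn, 0.000141 for Sparc and 0.0975 for Sparcl1. The labels state no pairing of same-numbered arrays, whose deviations correlated at 0.07, 0.01 and −0.04. With 3 arrays per group these values cannot show whether same-numbered mice were handled together.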
